A study of Mus musculus with 9 samples.

Results

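The metabotropic and delta glutamate receptors described here were the 7 genes Grm2, Grm3, Grm4, Grm5, Grm7, Grm8 and Grid1, of 31093 gene names on the array. They were chosen by gene name, and every non-control probe that carried one of these names was read. This gave 10 probes of 39429. All 10 were well above background on 9 of 9 arrays and passed the filter on dim probes, which kept 27991 probes of 21905 gene names.

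RNA was taken from the hippocampus of 9-month-old male C57BL/6J mice of 3 genotypes that differ in IF1 (gene Atp5if1, named Atpif1 on the array), the protein that inhibits the mitochondrial ATP synthase. In IF1-KO mice, exon 3 of a floxed Atp5if1 gene was deleted by Cre recombinase under the Camk2a promoter, which acts mainly in excitatory forebrain neurons, so that other hippocampal cells should keep the gene. In IF1-TG mice, human IF1 was placed under a tetracycline-regulated element and switched on by a transactivator that the same promoter drives. CRL mice were the controls, and the labels do not say which of the floxed, Cre or transactivator alleles they carried. Each genotype had 3 mice, each mouse had 1 single-colour array, and the 9 arrays lay on 3 slides. Of the IF1-TG mice, replicates 1 and 2 were on slide 1 and replicate 3 on slide 2. Of the IF1-KO mice, replicate 1 was on slide 2 and the others on slide 3, and of the CRL mice, replicate 3 was on slide 3 and the others on slide 2. The comparisons ask whether the level of IF1 in neurons goes with the level of these receptor transcripts.

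Metabotropic glutamate receptors are G protein-coupled receptors that tune glutamate synapses more slowly than the ion channel receptors. Grm5 belongs to group I, which couples to Gq and phospholipase C and sits mostly on the postsynaptic side of hippocampal pyramidal cells. Grm2 and Grm3 form group II, and Grm4, Grm7 and Grm8 belong to group III. Both of these groups couple to Gi/o, lower cyclic AMP and often restrain transmitter release from axon terminals, while Grm3 is also abundant in astrocytes. Grid1 encodes the delta receptor GluD1, which resembles the ionotropic receptors but works largely as an adhesion molecule that meets presynaptic neurexins through secreted cerebellins.

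The arrays read each transcript through 60-base probes, and a receptor is seen only at the stretch that its probe matches. The sequences shown are those of the Grid1 probe and of the 3 Grm5 probes, because the called differences lay on Grid1 and on 1 of the 3 Grm5 probes. The Grid1 probe (chr14:36393854-36393913 of mm9, plus strand) lies in the coding sequence. The 3 Grm5 probes lie on the plus strand of chromosome 7. A_55_P2316783 (chr7:94732759-94732818) starts at base 81 of its annotated transcript, near the 5′ end. The other Grm5 probes are annotated to a different Grm5 transcript record, on which their positions are counted. A_55_P2112464 (chr7:95279335-95279394) starts at base 4285 and spans the stop codon, shown in capitals, with 42 coding bases before it and 15 bases after it. A_55_P2033425 (chr7:95282581-95282640) starts at base 7531, in the 3′ untranslated region, 3.25 kb downstream of the stop codon probe. For the outer pair of Grm5 probes the first 30 bases are given.
Grid1 A_55_P2001688: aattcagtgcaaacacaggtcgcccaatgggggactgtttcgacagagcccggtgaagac
Grm5 A_55_P2112464: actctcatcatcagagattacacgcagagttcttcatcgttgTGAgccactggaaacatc
Grm5 A_55_P2033425: attgtataatggctctgctgcagtctgtga
Grm5 A_55_P2316783: tgttcactcactgatccaaggctagccagc

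Levels are given on a log2 scale on which 0 is the 75th percentile of that array's own probes. A probe's own brightness depends on its sequence, and levels are therefore compared between arrays for 1 probe. The gap between probes of 1 gene is likewise compared only from array to array. A gene was called when 1 of its probes differed by at least 1.5-fold with an unadjusted P below 0.05 in limma, after the limits on fold change and limma P in the study's methods, which do not say whether P was adjusted or how probes of 1 gene were combined. The values printed are P adjusted over all 27991 kept probes by the Benjamini-Hochberg method. A difference said to be called passed both thresholds.

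IF1 itself did not follow every label. The Atpif1 probe read 6.44 in IF1-KO replicate 1, against 5.20 and 5.53 in the other IF1-KO mice, 6.19 to 6.34 in CRL and 6.39 to 6.51 in IF1-TG mice. The library labelled IF1-KO replicate 1 thus showed no reduction at this probe, whose place relative to the deleted exon was not established, and a probe for the mouse gene need not read the human transgene. CRL replicate 3 stood apart in markers of the striatum, a neighbouring region, with a mean log2 signal of 0.07 over 9 of 9 kept genes against -1.22 to -0.80 on the other 8 arrays. IF1-TG replicate 2 stood apart in thalamus markers, at -0.53 over 10 of 11 kept genes against -1.26 to -1.02 elsewhere. Choroid plexus markers, 9 of 9 kept, read 3.13 on IF1-TG replicate 1, 2.08 on CRL replicate 2 and 1.75 on IF1-KO replicate 3 against -1.99 to -0.65 on the other 6 arrays. IF1-KO replicate 2 differed from the other IF1-KO mice in markers of the dentate gyrus (-1.38 against -0.66 and -0.66), neocortex (-0.63 against -1.47 and -1.63), oligodendrocytes (1.71 against 2.15 and 2.01) and CA1 (1.89 against 2.30 and 2.32, 6 of 6 kept). IF1-TG replicate 1 was also the lowest array in interneuron markers (12 of 12 kept, 1.20 against 1.51 to 1.89 on the other 8) and in CA1 markers (1.86 against 2.37 and 2.48 in the other IF1-TG mice). Calls of receptor probes that change when 1 of these libraries is left out are given with and without it.

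In each comparison 1 receptor gene of 7 was called and the other 6 were not. In IF1-TG versus IF1-KO mice, 1 of the 7 genes was called, Grid1, which was lower in IF1-TG, where 4.73% of all genes were called. In IF1-TG versus CRL mice, 1 of the 7 was again called, again Grid1 and again lower in IF1-TG, against 5.59% of all genes. In IF1-KO versus CRL mice, Grm5 alone was called, on 1 of its 3 probes and higher in IF1-KO, against 1.35% of all genes. These shares of all genes themselves moved when 1 array was left out, to 2.83% to 7.82% in IF1-TG versus IF1-KO (lowest without IF1-KO replicate 2, highest without IF1-TG replicate 2), 4.73% to 8.77% in IF1-TG versus CRL (highest without IF1-TG replicate 2) and 0.893% to 5.04% in IF1-KO versus CRL (lowest without CRL replicate 1, highest without CRL replicate 3). With so few members, 1 call of 7 cannot be read as a share that departs from these backgrounds. No member probe passed an adjusted P of 0.05 in any comparison, and the smallest adjusted P was 0.59 in IF1-TG versus IF1-KO, 0.328 in IF1-TG versus CRL and 1 in IF1-KO versus CRL. At an unadjusted P below 0.05 without the fold threshold, 1, 3 and 1 of the 10 probes passed in these comparisons, where 7.15%, 8.46% and 2.56% of all kept probes did. The IF1-TG comparisons share the IF1-TG arrays, and those with CRL share the CRL arrays, so the calls are not independent of each other.

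The median difference over the 10 probes was 0.07 on the log2 scale in IF1-TG versus IF1-KO, 0.00 in IF1-TG versus CRL and -0.04 in IF1-KO versus CRL, beside 0.01, 0.00 and -0.01 over all kept probes. The median size of the difference regardless of sign was 0.15, 0.13 and 0.08 for the receptors and 0.16, 0.16 and 0.13 for all kept probes. The arrays of the genotypes did not overlap on 2 of 10 receptor probes in IF1-TG versus IF1-KO (Grid1 and a Grm4 probe), where 13.6% of all probes did not. They did not overlap on 1 of 10 in IF1-TG versus CRL (Grid1), against 12.1%, and on 1 of 10 in IF1-KO versus CRL (the Grm5 stop codon probe), against 7.9%.

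**Figure D1:**
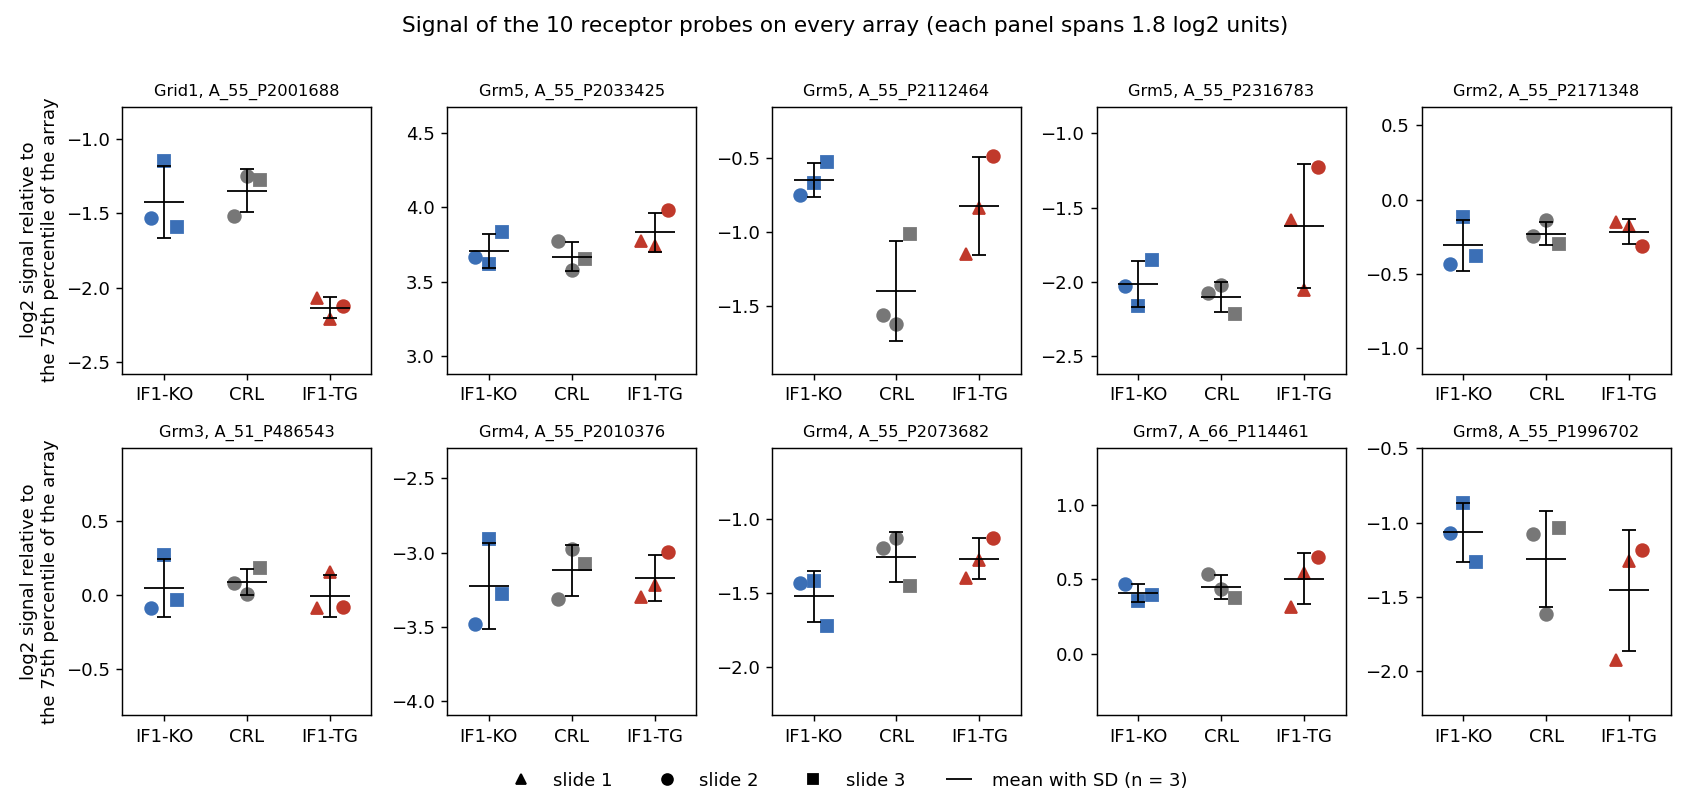
Signal of each receptor probe on the 9 arrays, on the y axis in log2 units above or under that array's 75th percentile, with the genotype on the x axis and the slide as the point's shape. Horizontal lines with bars are the mean with SD of 3 mice. The 3 IF1-TG arrays lie under all others for Grid1, the 3 CRL arrays lie under the 3 IF1-KO arrays for the Grm5 stop codon probe A_55_P2112464, and most other panels overlap.

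Grid1, the delta receptor, was the member that differed most in both IF1-TG comparisons. Its log2 signal was -2.07, -2.21 and -2.12 in the IF1-TG mice, -1.53, -1.15 and -1.59 in the IF1-KO mice and -1.52, -1.25 and -1.27 in the CRL mice. All 3 IF1-TG arrays were lower than each of the 6 others, while IF1-KO and CRL arrays were interleaved. The means were -2.14 ± 0.07 in IF1-TG, -1.42 ± 0.24 in IF1-KO and -1.35 ± 0.15 in CRL mice (SD, n = 3 each). The transgenic signal was 1.64-fold under that of IF1-KO mice, a log2 difference of -0.71 with an SE of 0.15 and a 95% interval of -1.05 to -0.38, past the unadjusted threshold in limma with an adjusted P of 0.59. It was 1.73-fold lower in IF1-TG than in CRL mice, a log2 difference of -0.79 with an interval of -1.13 to -0.45, past the unadjusted threshold with adjusted P = 0.328. By unadjusted P the Grid1 probe ranked 50 and 47 among the 27991 probes in these comparisons. Between IF1-KO and CRL mice the difference was -0.08, with an interval of -0.41 to 0.26. In limma's F test over the 3 genotypes together, Grid1 had an adjusted P of 0.528.

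The drop of Grid1 was also measured inside the only slide that held all 3 genotypes. On slide 2, the 1 IF1-TG array was lower than the library labelled IF1-KO replicate 1, whose Atpif1 signal was not reduced, by a log2 difference of -0.59 and lower than the mean of the 2 CRL arrays by -0.74. With slide as a fixed block the differences were -0.61 (adjusted P = 0.729) and -0.73 (adjusted P = 0.353), both still called, but as slide 1 held IF1-TG arrays alone, these blocked differences rest on IF1-TG replicate 3 as the slide 2 differences do. The call against IF1-KO rested on 1 mouse for its fold threshold, since without IF1-KO replicate 2, the highest of all 9 arrays and the one apart in dentate gyrus, neocortex, oligodendrocyte and CA1 markers, the difference was -0.58 (adjusted P = 0.998), past the unadjusted threshold but under 1.5-fold. The call against CRL held without any single array, at -0.87 to -0.74.

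Without IF1-KO replicate 1, whose Atpif1 signal was not reduced, the Grid1 difference between IF1-TG and IF1-KO was -0.77 (adjusted P = 0.628) and the Grm5 stop codon probe differed between IF1-KO and CRL by 0.80 (adjusted P = 0.978), and both were still called. Without CRL replicate 3, Grid1 differed from CRL by -0.75 (adjusted P = 0.284), and without IF1-TG replicate 2 by -0.68 from IF1-KO (adjusted P = 0.393) and -0.75 from CRL (adjusted P = 0.228), each still called. The share of probes well above background was 66.7% to 69.5% on IF1-TG arrays, lower than the 71.0% to 74.9% on the others, and moved with Grid1, which was itself well above background on every array. Its part in the Grid1 result was not tested.

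**Figure D2:**
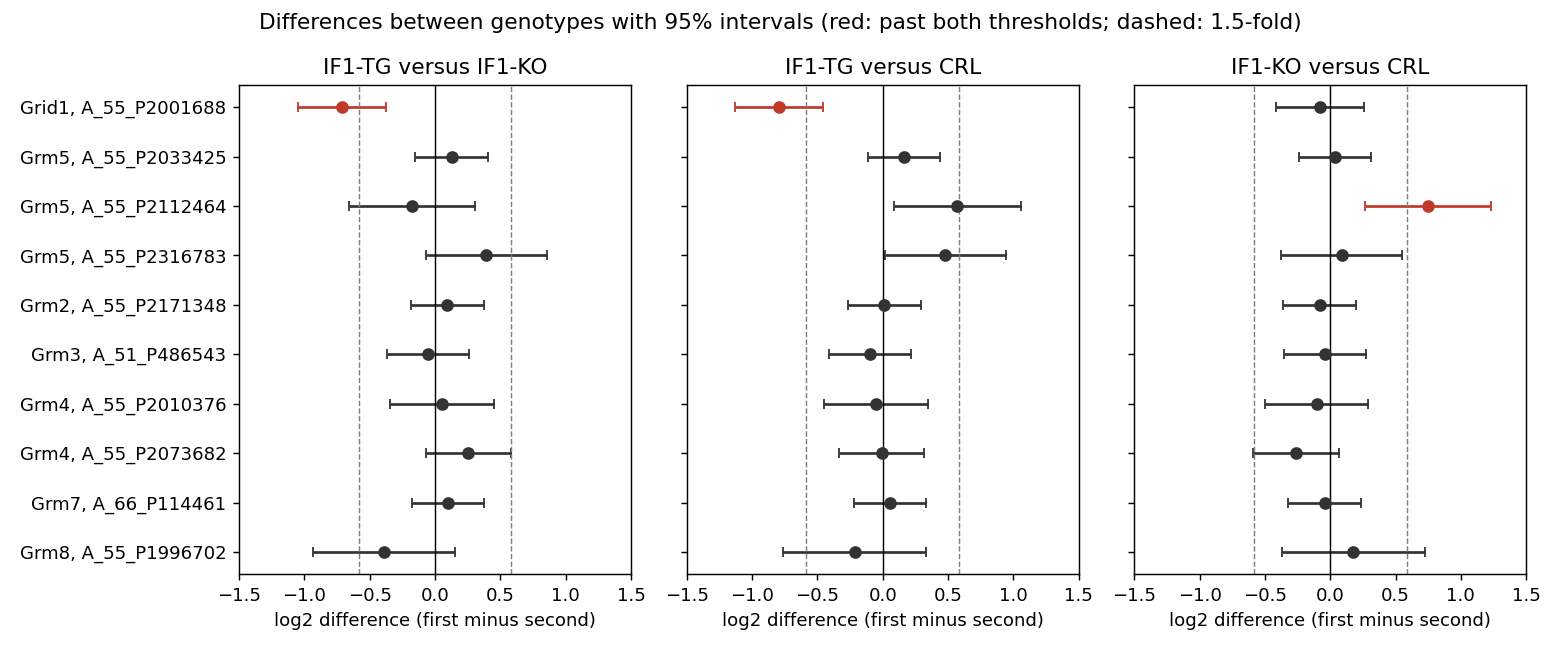
Log2 difference of each receptor probe in the 3 comparisons, on the x axis as the first genotype minus the second, with 95% limma intervals. Red marks the called probes and dashed lines 1.5-fold. The Grid1 intervals lie wholly under 0 in both IF1-TG comparisons, and the interval of the Grm5 stop codon probe lies wholly over 0 in IF1-KO versus CRL.

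Grm5, the group I receptor, was read by 3 probes, and 1 of them was called, in 1 comparison. On the stop codon probe the log2 signal was -0.75, -0.67 and -0.53 in IF1-KO mice, -1.56, -1.62 and -1.01 in CRL mice and -1.15, -0.84 and -0.49 in IF1-TG mice. The IF1-KO arrays were all higher than the CRL arrays, and the IF1-TG arrays overlapped both. The means were -0.65 ± 0.11 in IF1-KO, -1.40 ± 0.34 in CRL and -0.83 ± 0.33 in IF1-TG mice (SD, n = 3 each). The signal was 1.68-fold higher in IF1-KO than in CRL mice, a log2 difference of 0.75 with an SE of 0.21 and an interval of 0.26 to 1.23, past the unadjusted threshold with an adjusted P of 1. It was 1.49-fold higher in IF1-TG than in CRL mice, a difference of 0.57 with an interval of 0.09 to 1.06 and adjusted P = 0.551, which passed the unadjusted threshold and fell just short of the fold threshold. IF1-TG minus IF1-KO was -0.18, with an interval of -0.66 to 0.31. It turned positive within slide 2, at 0.26, and with slide as a fixed block, at 0.41 (adjusted P = 0.845), where it was not called.

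The higher Grm5 signal in IF1-KO at the stop codon was present on both slides that held the pair of genotypes, at 0.84 on slide 2 and 0.41 on slide 3. The first of these rests on the library labelled IF1-KO replicate 1, whose Atpif1 signal was not reduced. With slide as a fixed block it was 0.63 and still called (adjusted P = 1). Under that block, IF1-TG exceeded CRL by 1.03 on the same probe (adjusted P = 0.239), past both thresholds, a difference that rests on IF1-TG replicate 3 as the 1 IF1-TG array beside other genotypes. CRL replicate 3 lay nearest to the IF1-KO arrays, and without it the difference between IF1-KO and CRL was 0.94 (adjusted P = 0.356) and that between IF1-TG and CRL was 0.77 (adjusted P = 0.37), past both thresholds. Without IF1-TG replicate 1 the difference between IF1-TG and CRL was 0.73 (adjusted P = 0.572), also past both thresholds. Without IF1-TG replicate 3 it was 0.40 (adjusted P = 0.669), past neither.

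The brightest Grm5 probe, in the 3′ untranslated region, did not pass the test in any comparison. It read 3.66, 3.62 and 3.83 in IF1-KO mice, 3.77, 3.58 and 3.65 in CRL mice and 3.77, 3.74 and 3.98 in IF1-TG mice. The 3 genotypes overlapped throughout. IF1-KO exceeded CRL by 0.04, with an interval of -0.24 to 0.31, which overlaps that of the stop codon probe. IF1-TG exceeded CRL by 0.16 (interval -0.11 to 0.44) and IF1-KO by 0.13 (interval -0.15 to 0.40).

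The 5′ Grm5 probe was higher in IF1-TG mice than in CRL mice by less than the fold threshold, and whether it was called depended on the slide block and on single IF1-TG arrays. It read -2.02, -2.16 and -1.85 in IF1-KO mice, -2.08, -2.02 and -2.21 in CRL mice and -1.59, -2.06 and -1.23 in IF1-TG mice. IF1-TG replicates 1 and 3 were higher than every other array, and replicate 2 lay among the rest. IF1-TG exceeded CRL by 0.48 (interval 0.02 to 0.94, adjusted P = 0.576, past the unadjusted threshold) and IF1-KO by 0.39 (interval -0.07 to 0.85), while IF1-KO and CRL differed by 0.09 (interval -0.37 to 0.55). Without IF1-TG replicate 2 the probe was called against both genotypes, at 0.70 against CRL (adjusted P = 0.229) and 0.61 against IF1-KO (adjusted P = 0.41). Without IF1-TG replicate 3 it fell to 0.28 (adjusted P = 0.74) and 0.19 (adjusted P = 0.794) and passed neither threshold. With slide as a fixed block it was called against both, at 0.85 against CRL (adjusted P = 0.324) and 0.74 against IF1-KO (adjusted P = 0.705), in a fit where the IF1-TG differences again rest on replicate 3 alone.

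The gap between Grm5 probes was compared within arrays, a test chosen after the values were seen. The signal of the stop codon probe minus that of the brightest probe was -4.41, -4.29 and -4.36 in IF1-KO mice and -5.33, -5.20 and -4.66 in CRL mice. The IF1-KO values were all higher and the mean gap differed by 0.71. In a two-sided exact permutation test this gave p = 0.1, the smallest that 3 mice against 3 can give, and 0.3 after Benjamini-Hochberg adjustment over 12 such comparisons of Grm4 and Grm5 probe pairs. The genotypes did not overlap in 3 others of the 12, all with the stop codon probe and with the same p and adjusted p from that exact test. The gap to the brightest probe was lower in IF1-TG than IF1-KO arrays by a difference of -0.30, and the 5′ probe minus the stop codon probe differed by 0.57 in IF1-TG versus IF1-KO and by -0.66 in IF1-KO versus CRL. The design could therefore not reach 0.05, and the Grm5 call in IF1-KO versus CRL rests on the stop codon probe alone.

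**Figure D3:**
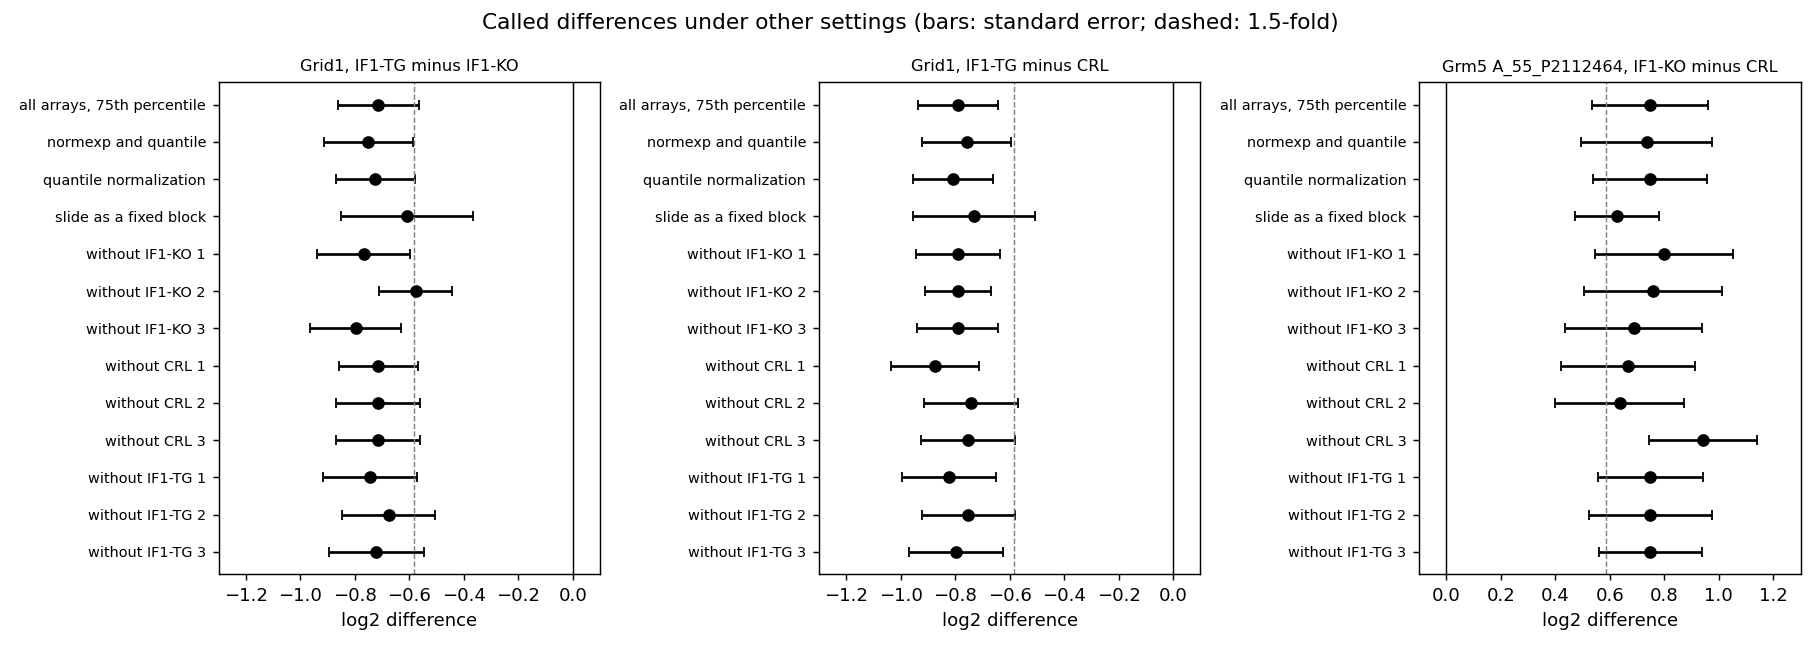
Log2 difference of the 3 called results, on the x axis, under the setting named on the y axis: all arrays with the 75th percentile scaling, other normalizations, slide as a fixed block, and each array left out. Bars are standard errors and dashed lines 1.5-fold. Every point keeps its sign, and only Grid1 in IF1-TG versus IF1-KO without IF1-KO replicate 2 (-0.58) misses the dashed line.

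The group II receptors Grm2 and Grm3 did not pass the test in any comparison. Grm2, a presynaptic autoreceptor, read -0.43, -0.12 and -0.38 in IF1-KO mice, -0.25, -0.14 and -0.30 in CRL mice and -0.15, -0.18 and -0.31 in IF1-TG mice. The genotypes overlapped, and the differences were 0.09 (interval -0.19 to 0.37) for IF1-TG minus IF1-KO, 0.01 (-0.27 to 0.29) for IF1-TG minus CRL and -0.08 (-0.36 to 0.20) for IF1-KO minus CRL. Grm3 read -0.09, 0.27 and -0.04 in IF1-KO mice, 0.09, 0.01 and 0.18 in CRL mice and -0.09, 0.16 and -0.08 in IF1-TG mice. Its genotypes overlapped too, with differences of -0.05 (interval -0.37 to 0.26), -0.09 (-0.41 to 0.22) and -0.04 (-0.35 to 0.27) in the same order. For both genes every interval lies inside the fold threshold of 1.5 in either direction.

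Of the group III receptors, Grm4 was read by 2 probes. Probe A_55_P2073682, in the coding sequence (chr17:27571527-27571586, minus strand), read -1.43, -1.42 and -1.72 in IF1-KO mice, -1.20, -1.13 and -1.45 in CRL mice and -1.40, -1.28 and -1.13 in IF1-TG mice. The IF1-TG arrays were all higher than the IF1-KO arrays, at -1.40 and -1.42 for the nearest, and the CRL arrays overlapped both. IF1-TG exceeded IF1-KO by 0.25 (interval -0.07 to 0.58), IF1-KO minus CRL was -0.26 (interval -0.59 to 0.06) and IF1-TG minus CRL was -0.01 (interval -0.34 to 0.32). The dimmer probe A_55_P2010376 (chr17:27559349-27559408, minus strand) ranged from -3.48 to -2.91 in IF1-KO, -3.31 to -2.97 in CRL and -3.30 to -2.995 in IF1-TG mice. It did not separate the genotypes, at 0.05 (interval -0.34 to 0.45), -0.10 (-0.50 to 0.29) and -0.05 (-0.45 to 0.34) in the same order. On the coding sequence probe, IF1-KO minus CRL was -0.36 without CRL replicate 3 (adjusted P = 0.719), past the unadjusted threshold but under 1.5-fold. Without IF1-KO replicate 3 that difference was -0.17, and IF1-TG minus IF1-KO was 0.16.

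Grm7, the receptor of the presynaptic active zone, was among the members with the least spread. It read 0.47, 0.35 and 0.40 in IF1-KO mice, 0.54, 0.44 and 0.38 in CRL mice and 0.32, 0.55 and 0.65 in IF1-TG mice. The IF1-TG arrays spanned the range of the other genotypes. The differences were 0.10 (interval -0.18 to 0.38) for IF1-TG minus IF1-KO, 0.06 (-0.22 to 0.33) for IF1-TG minus CRL and -0.04 (-0.32 to 0.24) for IF1-KO minus CRL.

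Grm8 had the widest spread of the 10 probes. It read -1.07, -0.87 and -1.26 in IF1-KO mice, -1.08, -1.62 and -1.04 in CRL mice and -1.93, -1.26 and -1.19 in IF1-TG mice. IF1-TG replicate 1 was the lowest array and CRL replicate 2 the next, and the genotypes overlapped. In each genotype the lowest Grm8 array was the one that stood apart in choroid plexus markers, and IF1-TG replicate 1 was the lowest in interneuron and CA1 markers too. Their part in the Grm8 values was not tested. IF1-TG minus IF1-KO was -0.39 (interval -0.94 to 0.16), IF1-TG minus CRL was -0.21 (-0.76 to 0.33) and IF1-KO minus CRL was 0.18 (-0.37 to 0.72). Without IF1-TG replicate 1 the first became -0.15 and the second 0.02, and with slide as a fixed block -0.02 and 0.11. Leaving out CRL replicate 2 took the second to -0.40 and turned the third to -0.01. Each of the 3 intervals reaches past 1.5-fold on 1 side. The residual SD within genotypes was 0.32 for Grm8, 0.17 for Grid1, 0.12 for Grm2 and Grm7 and 0.11 for the brightest Grm5 probe, against a median of 0.24 over all kept probes.

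Across the 9 arrays, the receptor probes ranged in pairwise Pearson correlation from -0.713, between Grid1 and the brightest Grm5 probe, to 0.821, between the brightest and the 5′ Grm5 probes. These correlations run over arrays of 3 genotypes that share slides, and describe these 9 arrays. The gene most like Grm3 over the 9 arrays was Brinp2 (r = 0.982), followed by Grk6 (0.951) and Kifc3 (0.939). For Grid1 the highest correlations were with a probe that has no gene name (0.930), Bub3 (0.930) and Casq2 (0.929). For the brightest Grm5 probe the highest was with 0710001A04Rik (0.969). Those with a gene symbol were Spata2 for Grm4 (0.953), Frg1 (0.972) and A530058N18Rik (0.966) for Grm7, Brf2 (0.967), Pla2g6 (0.966) and Psmd13 (0.965) for Grm8, and Wnt10a for Grm2 (0.929). They were picked as the highest among all kept gene names on 9 arrays and carry no test.

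The genes through which these receptors act were read from 5 lists with 117 kept genes. In IF1-TG versus IF1-KO mice 1 was called higher and 1 lower, 1.71% of the 117, in IF1-TG versus CRL mice 2 were called higher and 2 lower, 3.42%, and in IF1-KO versus CRL mice none was called by limma. These shares stand beside 4.73%, 5.59% and 1.35% of all genes.

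Of the 27 genes of group I signalling, downstream of Grm5, Plcb4 was called higher in the transgenic than in IF1-KO mice and Trpc6 was called lower in IF1-TG than in CRL mice. Plcb4 encodes a phospholipase C that Gq activates, and its brightest probe differed by 0.72 (SE 0.14, adjusted P = 0.55). Its other probes differed by 0.24 and 0.05 and did not pass. Against CRL mice the brightest Plcb4 probe was higher in IF1-TG by 0.57 (adjusted P = 0.385), past the unadjusted threshold but under 1.5-fold. Trpc6, a cation channel opened by diacylglycerol, differed by -0.80 (SE 0.30, adjusted P = 0.551). It differed by -0.40 in IF1-TG versus IF1-KO and by -0.40 in IF1-KO versus CRL mice, and was called in neither. Over the list, the median difference of the brightest probes was 0.09 in IF1-TG versus IF1-KO, 0.07 in IF1-TG versus CRL and -0.03 in IF1-KO versus CRL mice, with 18, 16 and 10 of 27 genes higher in the genotype named first.

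Of the 29 genes of Gi/o signalling, downstream of groups II and III, Gnao1 was higher in IF1-TG than in CRL mice on its dimmer probe alone. Gnao1 encodes the G protein subunit alpha o, and this probe differed by 0.61 (SE 0.24, adjusted P = 0.558), while its brightest probe differed by 0.39 (SE 0.21, adjusted P = 0.665). Adcy9, an adenylyl cyclase, and Kcnj3, a subunit of the potassium channel opened by Gi/o, had the smallest P of the rest in IF1-TG versus IF1-KO and were not called, at 0.41 (adjusted P = 0.704) and, on the dimmer Kcnj3 probe, 0.40 (adjusted P = 0.712). The brightest Kcnj3 probe differed by -0.16.

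Among the 24 kept genes of receptor binding and trafficking, Siah1a, a ubiquitin ligase that binds group I receptors, was called lower in IF1-TG than in CRL mice by a log2 difference of -0.63 (SE 0.20, adjusted P = 0.503). Grip1, a scaffold protein, and Fmr1, the RNA-binding protein of fragile X syndrome, came next by P in IF1-TG versus IF1-KO and were not called, with 0.77 (adjusted P = 0.699) on the brightest of 3 Grip1 probes and 0.39 (adjusted P = 0.707) on a dimmer Fmr1 probe. The other Grip1 probes differed by -0.05 and -0.15, and the brightest Fmr1 probe by -0.55.

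None of the 16 kept delta receptor partners was called by limma in any comparison, where Grid1 itself was lower in IF1-TG mice. The smallest P in IF1-TG versus IF1-KO belonged to Nrxn3, a neurexin, with 0.49 (adjusted P = 0.712) on 1 of its 6 probes and 0.05 on the brightest, and to Magi2, a scaffold protein, with 0.32 (adjusted P = 0.733) on its dimmer probe. Of the Nrxn3 probes, 1 other passed P below 0.05 without the fold threshold in IF1-TG versus CRL (0.36, adjusted P = 0.584). The list's median was 0.02 in IF1-TG versus IF1-KO and 0.07 in IF1-TG versus CRL mice.

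Of the 21 genes of glutamate supply and clearance, Rimklb, an enzyme that makes N-acetylaspartylglutamate, an agonist of Grm3, was called lower in the transgenic than in IF1-KO mice on 1 of its 3 probes (-0.65, SE 0.22, adjusted P = 0.661). The others were at -0.53 (adjusted P = 0.681), past the unadjusted but not the fold threshold, and -0.32, which passed neither. Slc38a1, a glutamine transporter, was called higher in IF1-TG than in CRL mice on a probe that differed by 0.61 (adjusted P = 0.578). Its brightest probe differed by -0.40 and the other by 0.25, neither past the threshold, so its probes did not point the same way.

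**Figure D4:**
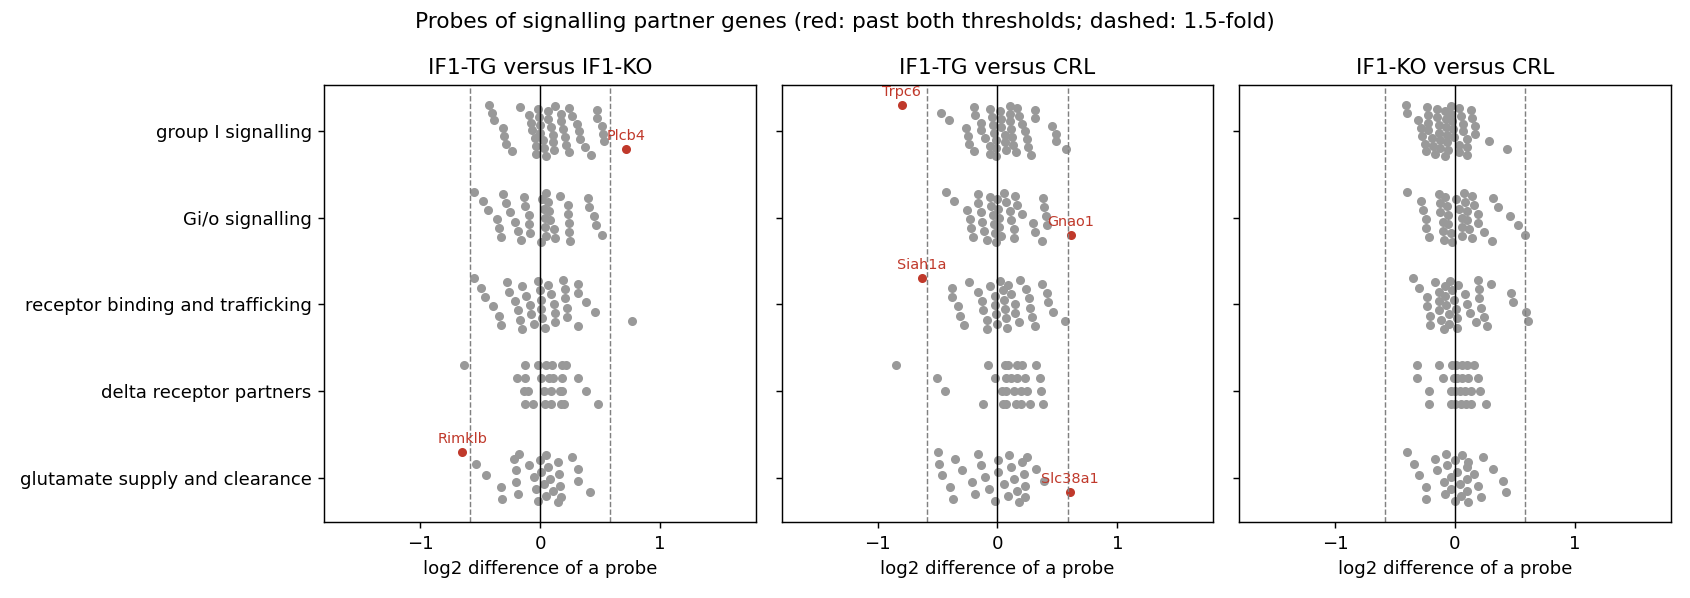
Log2 difference of every kept probe of the 5 lists of partner genes in the 3 comparisons, with 1 point per probe, red for called probes and dashed lines at 1.5-fold. Points centre near 0 in every list, and the 6 called genes each stand on 1 probe.

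Markers of hippocampal and neighbouring cells were read beside the receptors. In bulk tissue, fewer cells of a type and less RNA per cell cannot be told apart. All 9 excitatory neuron markers were kept and their mean log2 signal was 2.93 to 3.11 on IF1-KO, 2.95 to 3.06 on CRL and 2.93 to 3.07 on IF1-TG arrays, and the 3 genotypes overlapped. In its mean, none of the 13 marker lists separated the IF1-TG arrays from both other genotypes, and the lists' part in the Grid1 differences was not tested. The dentate gyrus list, with 10 of 10 genes kept, was lower both on IF1-KO arrays (-1.38 to -0.66) and on IF1-TG arrays (-1.14 to -0.80) than on CRL arrays (-0.64 to -0.47), and it holds Trpc6 of group I signalling and C1ql2 of the delta receptor partners. IF1-KO replicates 1 and 3, both at -0.66, lay just under the lowest CRL array at -0.64, while IF1-KO replicate 2 was at -1.38. The dentate gyrus list was thus lower in IF1-KO than in CRL mice, where the Grm5 stop codon signal was higher. It was lower in IF1-TG than in CRL mice, where the Grid1 signal was lower too. Its part in either difference was not tested. The striatum list was lower in IF1-KO and IF1-TG than in CRL mice for all 9 genes, Adora2a being called in both, and CRL replicate 3, its highest array, was also the CRL array nearest to IF1-KO on the Grm5 stop codon probe. Single markers of other lists were called on 1 of 2 probes each. In the thalamus list, Tcf7l2 was higher in IF1-TG than in both other genotypes and Lef1 higher than in CRL mice, while the list overlapped between genotypes and the brightest probes of 8 of 10 kept genes were higher against IF1-KO and 6 of 10 against CRL. In the interneuron list, Pvalb was lower in IF1-TG than in CRL mice, with 3 of 12 genes higher and the arrays overlapping. In the astrocyte list, Aqp4 was higher in IF1-TG versus IF1-KO, with 8 of 11 genes higher and the arrays overlapping. The choroid plexus list overlapped in every comparison and had no called gene. Of its 9 genes, 9 were higher in IF1-TG versus IF1-KO, 8 in IF1-TG versus CRL and 1 in IF1-KO versus CRL mice. Their part in the Grid1 differences was not tested. In IF1-TG versus IF1-KO mice the oligodendrocyte list (12 of 12 kept, 2.16 to 2.29 against 1.71 to 2.15, Mal and Ermn being called) and the microglia list (10 of 10 kept, 1.69 to 1.84 against 1.61 to 1.65) were higher without overlap, and their part in the Grid1 difference was not tested either. The arrays did not overlap on 2 of 13 lists in IF1-TG versus IF1-KO and on 1 of 13 in each comparison with CRL. Over all probes the shares without overlap were 13.6% in IF1-TG versus IF1-KO, 12.1% in IF1-TG versus CRL and 7.9% in IF1-KO versus CRL. In IF1-KO versus CRL mice the oligodendrocyte list overlapped, with 2 of 12 genes higher, and its part in the Grm5 difference was not tested.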

How the data were processed

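Total RNA of 9 hippocampi was hybridized to Agilent mouse single-colour arrays, and the authors deposited each array's scanner output from Feature Extraction 10.7.3.1, with background-corrected Cy3 intensity per spot and quality marks. For each array, log2 of this deposited intensity minus its 75th percentile was taken in R 4.3.3. Control spots and outlier-marked spots were left out, spots of a probe were averaged, and a probe was kept if, in 1 genotype or more, each of the 3 mice gave a signal well above background. No kept receptor spot was saturated. Genotypes were compared with limma 3.58.1 (lmFit and eBayes, all 9 arrays, genotype as the only term), with Benjamini-Hochberg adjustment over all kept probes. The procedure was tested on simulated data. Precision is limited by 3 mice per genotype.

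Every receptor probe is reported. Of the partner lists, called genes were named, and where fewer than 2 of a list were called, up to 2 more with the smallest P in IF1-TG versus IF1-KO. For likeness, the 3 highest Pearson correlations were taken, and those without a gene symbol were left unnamed and 1 gene is not reported here. The brightest probe of a gene has the highest mean signal. The receptors, lists and markers were chosen with earlier results of these data known. Alternatives were other background corrections, normalizations, filters, call rules and variance priors, slide or replicate number as a block, and each array left out. Replicate numbers did not pair the mice. Probe positions are those of the deposited files (mm9).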

Additional observations from a re-analysis of the deposited data

How the results depend on the processing

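With an adjusted P below 0.05 as the call, 0 receptor genes were called in each of the 3 comparisons by limma, where 1 each was called at fold change and unadjusted P. With slide as a fixed block, 2 genes were called in IF1-TG versus IF1-KO and 2 in IF1-TG versus CRL, Grm5 joining Grid1, where the share of all genes called rose to 6.42% and 9.81% and the IF1-TG differences rest on IF1-TG replicate 3 (in the fit without the block and without that array, Grm5 was not called in either), and with slide as a random block (correlation within slide 0.0854) 2 in IF1-TG versus CRL, beside 5.51%. With unadjusted P alone, 2 were called in IF1-TG versus CRL, beside 10.4% of all genes. The share of all genes called in IF1-TG versus IF1-KO, IF1-TG versus CRL and IF1-KO versus CRL was 2.54%, 2.54% and 0.721% with normexp and quantile normalization and 10.1%, 14.6% and 2.31% without the filter on dim probes, with 1 receptor gene called in each. Leaving out 1 array at a time gave 0 to 2 genes in IF1-TG versus IF1-KO (0 when IF1-KO replicate 2 was left out, 2 when IF1-TG replicate 2 was, beside 2.83% and 7.82% of all genes), 1 to 2 in IF1-TG versus CRL (2 without CRL replicate 3 or IF1-TG replicate 1 or 2, beside 6.08%, 5.23% and 8.77% of all genes) and 1 throughout in IF1-KO versus CRL. Over its 19 alternatives, Grid1 stayed lower, at -0.80 to -0.58 against IF1-KO (adjusted P 0.269 to 0.998) and -0.87 to -0.73 against CRL (0.203 to 0.697), and the Grm5 stop codon probe stayed higher in IF1-KO than in CRL, at 0.63 to 0.94 (0.356 to 1). With the replicate block, 1 gene was called in each comparison, and the Grid1 difference from IF1-KO was -0.71 (adjusted P = 0.731). Same-numbered mice of different genotypes correlated at -0.165 to 0.116 in their deviations, above 0.1 in 1 of 9 pairs, so the numbers were not taken as pairs. Of all single-probe values under alternatives, 528 kept direction and call, 33 uncalled ones changed sign, 8 became called, 1 lost its call and none that was called reversed. The 3 mice per genotype and the single spot per probe limit what these arrays resolve.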
